A study of Mus musculus with 22 samples.

Results

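The core circadian clock genes Per1, Per2, Per3, Cry1, Cry2, Arntl, Clock, Nr1d1, Nr1d2 and Dbp were chosen by name, with earlier results of these data known though no measured value entered the rule, and form 10 of the 39056 genes counted in the mouse prefrontal cortex (PFC). All 10 passed the filter on low counts, which kept 14072 genes. The mice, on a C57BL/6J background, carried tetO-EGFP/Rpl10a and CaMKIIα-tTA, so that ribosomes bear an EGFP tag in cells in which the CaMKIIα promoter drives the transactivator. All animals were males of 8 to 12 weeks, were injected i.p. 2 times a day with 2 h between injections for 4 days, and were killed 2 h after the last injection. Control mice (mice 1, 4 and 7) received saline. EtOH mice (mice 2, 5, 8 and 9) received ethanol to 2 g/kg per day, and EtOH + ABT-888 mice (mice 3, 6, 10 and 11) received the same ethanol and, on the last day only, 25 mg/kg of the PARP inhibitor ABT-888. No group received ABT-888 without ethanol. Every mouse gave a TRAP library, made from RNA on the tagged ribosomes, and a total-RNA library from the same lysate, which makes 22 libraries from 11 mice. The mice lived on a light/dark cycle, and the clock time of injection and of tissue collection is not given in the sources used here.

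The mammalian clock is a feedback loop of transcription. CLOCK and ARNTL (BMAL1) form a dimer that binds E-box sequences and switches on the Per and Cry genes, and the PER and CRY proteins return to the nucleus and repress that dimer. In a second loop, the receptors NR1D1 and NR1D2 (REV-ERBα and REV-ERBβ) repress Arntl while ROR receptors activate it at the same element, and DBP, a clock output factor of the PAR bZip family, activates genes through the D-box. Most of these transcripts oscillate over the day in brain and other tissues, with Arntl near the opposite phase to Per and Dbp. Per1 is also induced within a short time by neuronal activity and by glucocorticoids.

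Promoter windows of RefSeq for GRCm38.p6, from 250 bases before to 50 bases after a start site, were at hand for 9 of the 10 genes. They are shown for the 3 genes with a match to the E-box or the D-box. Per2 has no window here. Capitals mark exact matches on either strand to the E-box (CACGTG), the RORE core (AGGTCA, here as its reverse complement) and the D-box (TTATGTAA). The Per1 window shown is chr11:69098699-69098998 on the plus strand, the Cry1 window chr10:85185005-85185304 on the minus strand and the Per3 window chr4:151044616-151044915 on the minus strand. A second Per1 window, chr11:69099902-69100201 on the plus strand, held no match to these elements and is not shown.
Per1: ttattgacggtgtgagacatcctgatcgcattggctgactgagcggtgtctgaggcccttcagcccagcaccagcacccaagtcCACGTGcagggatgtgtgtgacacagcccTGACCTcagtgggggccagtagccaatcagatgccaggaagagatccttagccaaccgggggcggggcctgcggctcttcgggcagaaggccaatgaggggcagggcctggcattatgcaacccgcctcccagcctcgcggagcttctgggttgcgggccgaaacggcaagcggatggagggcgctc
Cry1: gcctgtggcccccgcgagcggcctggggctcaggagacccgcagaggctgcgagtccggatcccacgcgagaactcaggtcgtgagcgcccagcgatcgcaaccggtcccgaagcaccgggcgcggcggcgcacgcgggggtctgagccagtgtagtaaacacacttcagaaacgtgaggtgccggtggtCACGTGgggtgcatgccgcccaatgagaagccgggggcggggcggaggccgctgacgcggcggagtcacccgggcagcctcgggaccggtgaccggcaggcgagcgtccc
Per3: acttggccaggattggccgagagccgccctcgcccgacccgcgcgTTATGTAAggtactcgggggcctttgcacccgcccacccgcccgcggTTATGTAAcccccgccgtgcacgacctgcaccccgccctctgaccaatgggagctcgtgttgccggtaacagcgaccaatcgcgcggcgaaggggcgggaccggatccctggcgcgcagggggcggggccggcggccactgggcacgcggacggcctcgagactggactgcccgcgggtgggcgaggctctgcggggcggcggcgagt
The E-box lies 166 bases before the start site in Per1 and 60 bases before it in Cry1. It was found in 2 of the 9 genes with a window, against 8.09% of all 27025 genes in the table. The RORE core stands 137 bases before the start site in Per1 and was also found in a window of Clock, Arntl and Nr1d2, so in 4 of 9 genes against 18.1% of all genes. A gene counted if any of its windows held the letters, and Clock had 3 windows, Arntl 2 and Per1 2. All 27025 genes had 32851 windows, of which 16.3% held the RORE core. Per3 held the D-box 2 times, 205 and 158 bases before its start site, and was the only one of the 9 genes with it, against 1.11% of all genes. The cAMP response element (TGACGTCA), found in 2.03% of all genes, was in none of the 9. The Per1 window shown belongs to a start site 3732 bases downstream of the first base of the gene in the annotation used for the counts, and a match is a run of letters, not a measured binding site.

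TRAP libraries held 6570957 to 22002618 counted reads and total-RNA libraries 22132534 to 32421392, and the fewest reads of any clock gene in any library were 148, for Arntl in the TRAP library of mouse 6. Levels are given as normalized CPM, gene counts relative to library size after scaling by edgeR's TMM factors, and comparisons between genes as RPKM, which also divides by exon length. A gene is called changed where the adjusted p (edgeR's quasi-likelihood test, Benjamini-Hochberg over 14072 genes) is under 0.05. Markers of the labelled cells were not all higher in TRAP. Camk2a, the gene whose promoter drives the tag, was not called between TRAP and total-RNA in Control mice (log2 fold change -0.17 ± 0.11 (SE), adjusted p = 0.203). Of 6 excitatory neuron markers 5 were lower in Control_TRAP, where 30.4% of all genes were lower, and their summed level over all mice was 2207 to 3269 CPM in TRAP and 3040 to 4125 in total-RNA. All 5 striatal projection neuron markers were higher in Control_TRAP (29.5% of all genes), with sums of 6573 to 10143 CPM in TRAP and 618 to 1388 in total-RNA. Of 6 inhibitory neuron markers 3 were higher and 1 was lower in Control_TRAP, with sums of 1656 to 2291 CPM in TRAP and 701 to 1004 in total-RNA. The sums of 7 astrocyte markers (76.8 to 346 CPM in TRAP, 1449 to 1867 in total-RNA) and of 6 microglia markers (4.92 to 41.9 and 85.6 to 259) were lower in TRAP. The part of cell makeup in the values below was not tested, and in tissue RNA fewer cells of a type and less RNA per cell cannot be told apart.

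Per unit of length, Nr1d1 was the most abundant clock gene and Per3 the least in both sample types of Control mice (n = 3 each). In Control_total-RNA, Nr1d1 had 29.3 ± 4.49 RPKM (SD). Nr1d2 (20.4 ± 0.866) and Cry2 (19.3 ± 1.29) came next and had overlapping ranges, as had Clock (16.1 ± 0.858) and Dbp (14.6 ± 3.41). Per1, Cry1 and Arntl could not be ordered, at 6.50 ± 0.949, 6.42 ± 0.607 and 6.15 ± 0.576 RPKM, and Per2 (5.19 ± 0.264) lay below Arntl without overlap but overlapped Per1. Per3 (2.87 ± 0.25) lay below all of them. In Control_TRAP the order was Nr1d1 (42.8 ± 4.50), Dbp (33.2 ± 6.78), Cry2 (26.9 ± 2.64) and Nr1d2 (26.5 ± 3.47), each overlapping the next. A second set of Cry1 (13.95 ± 0.545), Per1 (13.3 ± 0.886) and Clock (12.8 ± 0.678) followed, then Arntl (9.57 ± 0.687) and Per2 (8.20 ± 1.96), and then Per3 (3.07 ± 0.623). By mean level Dbp thus stood below Clock in total-RNA and above Cry2 in TRAP, while Clock stood below Cry1 and Per1 in TRAP. The counting could not keep overlapping genes apart if strand was not used, and its strand setting is not given in the sources used here. Dbp shares 539 of its 2993 exon bases with Sphk2 on the opposite strand, Nr1d1 shares 263 of 3077 with Thra, Cry2 295 of 6320 with D930015M05Rik and Arntl 33 of 7523 with Gm45355, so the levels of these 4 genes carry that uncertainty.

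**Figure D1:**
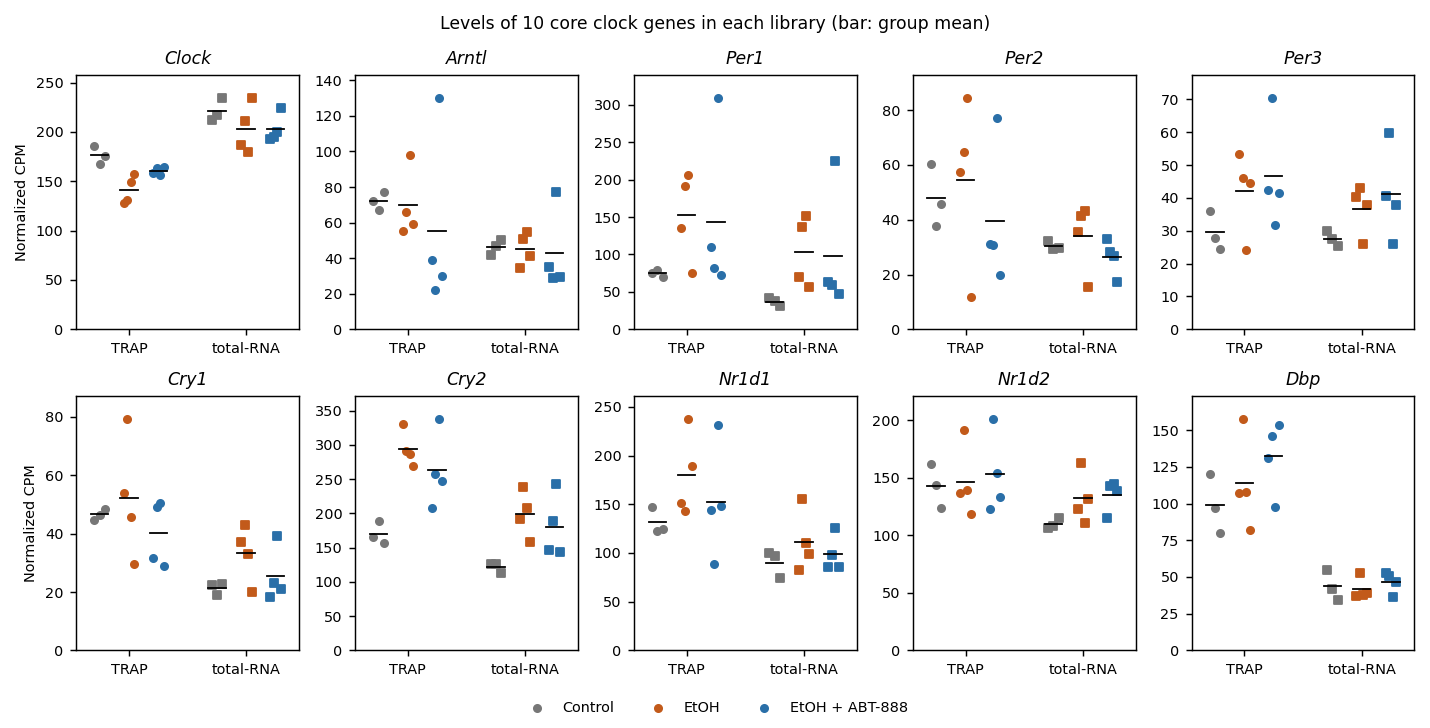
Normalized CPM (y axis, from 0) of each clock gene in every library, with circles for TRAP, squares for total-RNA, colours for the treatment and a bar at the group mean (3 mice in Control and 4 in each treated group). Per1 and Cry2 of the treated mice lie above Control in total-RNA, and the highest Arntl and Per1 values of EtOH + ABT-888 come from mouse 10.

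TRAP was compared with total-RNA within each treatment. Total-RNA comes from all cells of the tissue, so this ratio carries both the ribosome-bound share of a transcript and the cell makeup of the TRAP libraries, which cannot be told apart here. In Control mice, 9 of the 10 clock genes were called, 8 higher in TRAP and 1 lower, where 59.9% of all genes tested were called (29.5% higher, 30.4% lower). The median log2 fold change of the 10 genes was 0.57, against 0.02 over all genes. Dbp was 120.5, 97.2 and 80.0 CPM in TRAP of mice 1, 4 and 7 and 54.8, 42.0 and 34.7 in their total-RNA, a log2 fold change of 1.16 ± 0.18 (adjusted p = 0.000175). The 2 sets of Dbp values did not overlap. Cry1 (1.11 ± 0.11, adjusted p = 5.55e-06) and Per1 (1.02 ± 0.12, adjusted p = 2.44e-05) were also about 2.15- and 2.03-fold higher in TRAP. Per2 (0.63), Arntl (0.62), Nr1d1 (0.53), Cry2 (0.46) and Nr1d2 (0.36) had smaller positive log2 fold changes. Clock was the gene lower in TRAP, with 186, 167 and 176 CPM against 212, 217 and 234 (log2 fold change -0.34 ± 0.08, adjusted p = 0.0045). Per3 had 36.2, 27.9 and 24.6 CPM in TRAP and 30.0, 27.6 and 25.2 in total-RNA, and the interval of its log2 fold change ran from -0.25 to 0.39.

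In EtOH mice 5 clock genes were called, 4 higher and 1 lower (50.7% of all genes called, 24.3% higher and 26.5% lower), and in EtOH + ABT-888 mice 3, of which 2 were higher (41% of all genes, 19.5% higher and 21.5% lower). Dbp had the highest ratio among the clock genes again, with log2 fold changes of 1.43 ± 0.20 in EtOH (adjusted p = 0.00012) and 1.50 ± 0.18 in EtOH + ABT-888 (adjusted p = 8.15e-05). Clock was lower in TRAP in both (-0.54 ± 0.13 and -0.34 ± 0.12), and Cry2 was higher in both (0.54 ± 0.14 and 0.54 ± 0.20). Arntl (0.60 ± 0.21) and Nr1d1 (0.68 ± 0.21) were called in EtOH and not in EtOH + ABT-888, and the difference between the groups was not tested. With the mouse as a block, which compares the TRAP and total-RNA library of the same mouse, the counts rose to 8 in EtOH (7 higher, with 58.8% of all genes called) and 6 in EtOH + ABT-888 (5 higher, with 54.3%), and was 9 in Control as without it (62.5%). Within single mice the TRAP level of Dbp exceeded the total-RNA level in 11 of 11 mice, by 1.07 to 1.71 on the log2 scale, as did Per1 (0.42 to 1.18), Cry1 (0.37 to 1.28) and Cry2 (0.28 to 0.79). Clock was lower in TRAP in 11 of 11 mice. Arntl was higher in TRAP in 10 of 11 mice, and Nr1d1, Nr1d2, Per2 and Per3 in 9 of 11. Some calls depended on single libraries. In EtOH + ABT-888, Clock was called in 1 of the 8 fits that leave out a library and Cry2 in 2 of 8, while Dbp was called in 8 of 8. In EtOH, Arntl lost its call in 3 of 8 such fits (adjusted p up to 0.0856) and Nr1d1 in 2 of 8 (up to 0.0571).

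**Figure D2:**
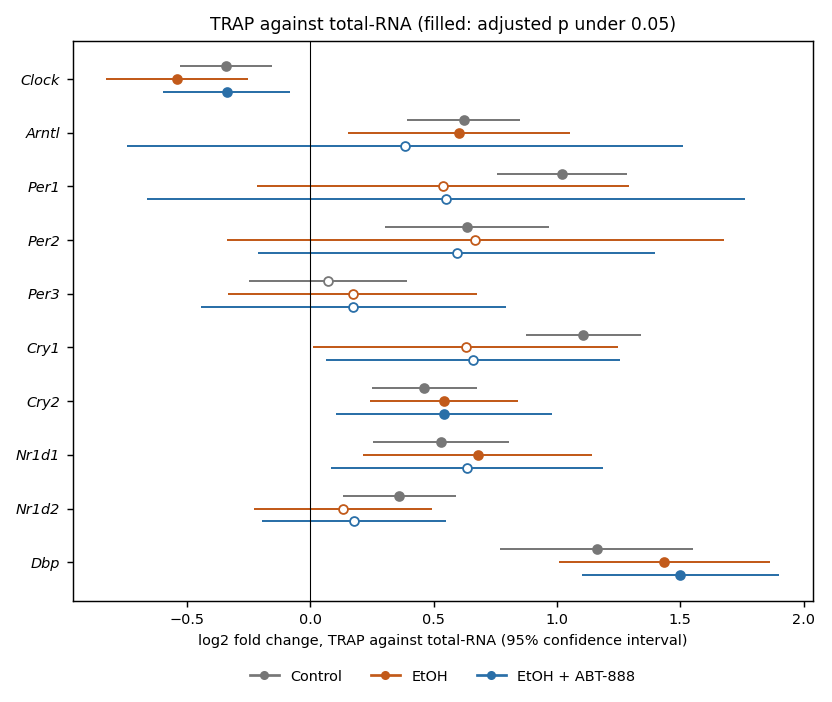
Log2 fold change of TRAP against total-RNA (x axis) with its 95% confidence interval for each clock gene in the 3 Control mice and the 4 mice of each treated group, with filled points where the adjusted p is under 0.05. Dbp lies highest in every treatment (1.16, 1.43 and 1.50), Clock lies below 0 in all 3, and the intervals of Arntl, Per1 and Per2 are wider in the treated groups than in Control.

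The effect of ethanol was taken from EtOH against Control in each sample type. In TRAP, Per1 and Cry2 were higher in EtOH, which is 2 of 10 clock genes with 5.24% of all genes called (2.77% higher), and in total-RNA Per1, Cry1 and Cry2 were higher, 3 of 10 with 17.6% of all genes called (9.04% higher). No clock gene was called lower. The median log2 fold change of the 10 genes was 0.22 in TRAP and 0.29 in total-RNA, against 0.02 and 0.00 over all genes. TRAP and total-RNA libraries come from the same mice, so the 2 sample types are not independent of each other.

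Among the repressors of the Per family, Per1 showed the steepest change. In total-RNA it had 41.5, 37.4 and 30.9 CPM in Control mice 1, 4 and 7 and 70.5, 136, 151 and 56.3 in EtOH mice 2, 5, 8 and 9, so that every EtOH mouse was above every Control mouse and mice 5 and 8 were highest. The log2 fold change was 1.50 ± 0.29 (2.84-fold, adjusted p = 0.00487), and it was called in 7 of 7 fits that leave out a library. In TRAP, Per1 had 75.2, 79.8 and 69.8 CPM in Control and 136, 192, 206 and 75.1 in EtOH. Mouse 9 lay within the Control range and the other 3 mice above it. The log2 fold change of 1.05 ± 0.28 was just past the threshold (adjusted p = 0.0499), and leaving out any library other than that of mouse 9 ended the call (adjusted p = 0.0591 to 0.188). Per2 varied more between EtOH mice than between groups, with 57.3, 64.6, 84.6 and 11.8 CPM in EtOH_TRAP against 60.5, 37.9 and 45.6 in Control_TRAP. In total-RNA, Per2 of mouse 9 (15.3 CPM) was likewise the lowest of its group, whose other mice had 35.5, 41.5 and 43.3 CPM. Per3 was not called. Its total-RNA levels were 30.0, 27.6 and 25.2 CPM in Control and 40.3, 42.9, 25.9 and 38.0 in EtOH (log2 fold change 0.42 ± 0.16, adjusted p = 0.0847), where mouse 8 lay within the Control range and the others above it. Without the library of mouse 8, Per3 was called (0.55, adjusted p = 0.0123).

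Cry2, a cryptochrome and the partner of PER in repression, was higher in EtOH in both sample types. In TRAP it had 165, 189 and 156 CPM in Control and 330.1, 291, 286 and 269.9 in EtOH (log2 fold change 0.81 ± 0.13, 1.75-fold, adjusted p = 0.00881). In total-RNA the values were 127, 127 and 113 CPM against 191, 239, 208 and 159 (0.71 ± 0.13, 1.64-fold, adjusted p = 0.00381). The groups did not overlap in either sample type, and EtOH mice differed from each other less than they did in Per1. The TRAP call was lost without Control mouse 1 or 7 (adjusted p = 0.0665 and 0.0661), and the total-RNA call held in 7 of 7 such fits. Cry1 had 22.5, 19.1 and 22.7 CPM in Control_total-RNA and 37.2, 43.0, 32.9 and 19.9 in EtOH_total-RNA (0.64 ± 0.20, adjusted p = 0.0476). Mouse 9 lay within the Control range again, and 6 of 7 fits that leave out a library ended this call (adjusted p = 0.078 to 0.171). In TRAP, Cry1 ranged from 44.8 to 48.5 CPM in Control and from 29.7 to 79.4 in EtOH and was not called.

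Neither activator was called with ethanol. Clock, the partner of ARNTL, had 186, 167 and 176 CPM in Control_TRAP and 128, 131, 149 and 158 in EtOH_TRAP. The groups did not overlap, but the log2 fold change of -0.30 ± 0.14 was not called (unadjusted p = 0.0491, adjusted p = 0.214). In total-RNA Clock ranged from 212 to 234 CPM in Control and from 180.0 to 235 in EtOH. Arntl ranged from 66.9 to 77.2 CPM in Control_TRAP and from 55.4 to 98.0 in EtOH_TRAP, and from 41.8 to 50.5 and 34.5 to 54.7 in total-RNA, with overlap in both.

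The receptors of the second loop and the output factor were not called with ethanol. Nr1d1 had 148, 123 and 124 CPM in Control_TRAP and 152, 143, 238 and 189 in EtOH_TRAP, with mouse 5 within the Control range and mouse 2 just above it (log2 fold change 0.47 ± 0.18, unadjusted p = 0.0239, adjusted p = 0.151). In total-RNA it ranged from 74.4 to 99.8 CPM in Control and from 82.2 to 156 in EtOH. Nr1d2 ranged from 106 to 115 CPM in Control_total-RNA and from 111 to 163 in EtOH_total-RNA. Dbp had 120.5, 97.2 and 80.0 CPM in Control_TRAP and 108, 158, 108 and 82.1 in EtOH_TRAP, and 34.7 to 54.8 against 36.9 to 52.7 in total-RNA. The Dbp groups overlapped in both sample types, with mouse 5 above the Control range in TRAP.

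The fit decided part of these calls. In a single fit over all 22 libraries, which shares 1 estimate of the spread among all groups, Cry2 was the only clock gene called in TRAP and none was called in total-RNA (adjusted p = 0.178 for Per1, 0.309 for Cry1 and 0.0535 for Cry2), with 8.46% and 1.07% of all genes called. The log2 fold changes of Per1, Cry1 and Cry2 in total-RNA were 1.50, 0.63 and 0.71 in that fit. For TRAP against total-RNA the single fit called 4 clock genes in Control (42.8% of all genes) and 5 in EtOH + ABT-888 (51.6%). With DESeq2's median-ratio factors (RLE) in edgeR's test, Per1 was no longer called for EtOH in TRAP (5.25% of all genes).

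**Figure D3:**
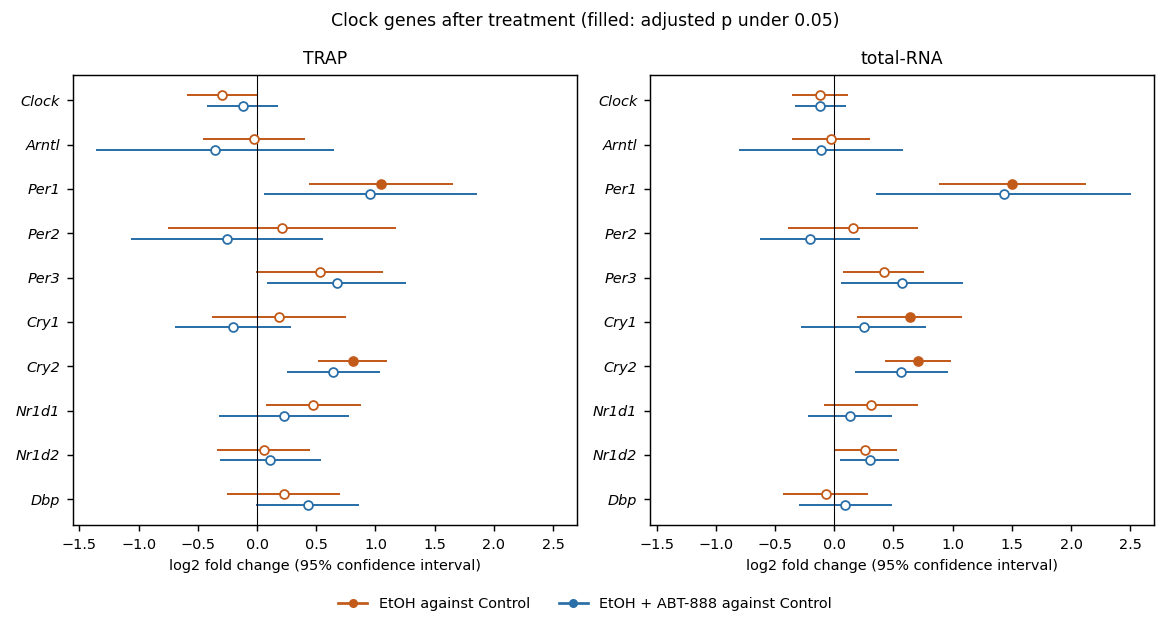
Log2 fold change (x axis) with its 95% confidence interval for each treated group of 4 mice against the 3 Control mice in TRAP (left) and total-RNA (right), with filled points where the adjusted p is under 0.05. Per1 and Cry2 are filled for EtOH in both sample types and Cry1 in total-RNA, and no point of EtOH + ABT-888 is filled.

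With ABT-888 added on the last day, no clock gene was called against Control in either sample type, with 0.476% of all genes called in TRAP and 0.263% in total-RNA. The same Control libraries serve both comparisons, and the values of the 2 treatments are given side by side for that reason. Before adjustment, 3 clock genes in TRAP and 4 in the other sample type had p under 0.05 by edgeR's quasi-likelihood test, as had 12.1% and 15.9% of all genes. DESeq2 called 1 clock gene, Cry2, in TRAP (2.98% of all genes) and 0 in total-RNA (4.41%). Without the filter on low counts edgeR called Per1 and Cry2 in each (1.91% and 1.99% of all genes). Cry2 had 208, 257, 338 and 247 CPM in EtOH + ABT-888_TRAP (mice 3, 6, 10 and 11), all above the Control range of 156 to 189 (log2 fold change 0.64 ± 0.18, adjusted p = 0.164). In total-RNA it had 147, 189, 242 and 143 CPM, all above the Control range of 113 to 127 (0.57 ± 0.18, adjusted p = 0.171). Per1 had 62.9, 59.1, 224 and 46.8 CPM in total-RNA, again all above Control, with mouse 10 far above the rest (1.43 ± 0.49, adjusted p = 0.199). Without mouse 10 the Per1 value fell to 0.62 (adjusted p = 0.0589). In TRAP, Per1 had 110.2, 81.7, 309.7 and 72.8 CPM, where mouse 11 lay within the Control range (0.95 ± 0.41, adjusted p = 0.384, and 0.25, adjusted p = 0.533, without mouse 10). Per3 had log2 fold changes of 0.67 ± 0.27 in TRAP and 0.58 ± 0.23 in total-RNA (adjusted p = 0.341 and 0.263). Its highest level, in mouse 6, was 70.6 CPM in TRAP and 59.8 in total-RNA, and its lowest, in mouse 10, was 31.7 and 26.0. Nr1d2 had 115, 143, 144 and 138 CPM in total-RNA against 106 to 115 in Control (0.30 ± 0.11, adjusted p = 0.231).

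Arntl split this group. In TRAP it had 39.2, 22.2 and 30.0 CPM in mice 3, 6 and 11, below each Control library (66.9 to 77.2), and 130.3 CPM in mouse 10, above each of them. In total-RNA the same mice had 35.2, 29.0 and 29.2 CPM, below the Control range of 41.8 to 50.5, and mouse 10 had 77.5 CPM. Over all 4 mice the log2 fold change was -0.36 ± 0.46 in TRAP (adjusted p = 0.797) and -0.11 ± 0.31 in total-RNA (adjusted p = 0.893), so that neither was called. Leaving out mouse 10 made Arntl lower than Control in TRAP (-1.22, adjusted p = 0.00883) and in total-RNA (-0.57, adjusted p = 0.0438). Leaving out mouse 6 or mouse 11 from total-RNA instead turned the sign, to 0.03 in both cases. These values describe 1 mouse against 3 and carry no test of the split. Both libraries of mouse 10 gave the same picture, and its TRAP and total-RNA share the lysate.

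Per2, Cry1, Nr1d1, Dbp and Clock of EtOH + ABT-888 mice were not called against Control. Per2 had 31.1, 30.8, 77.1 and 19.7 CPM in TRAP, with mouse 10 highest, and 32.9, 28.3, 26.9 and 17.4 in total-RNA, where it was not. Clock in TRAP was 158, 164, 156 and 164 CPM, below the Control range of 167 to 186, as in EtOH. Dbp was 131, 146, 97.9 and 154 CPM in TRAP and 52.8, 50.8, 36.4 and 46.8 in total-RNA, with mouse 10 lowest in both. Cry1 ranged from 29.0 to 50.5 CPM in TRAP and from 18.4 to 39.1 in total-RNA, and Nr1d1 from 88.3 to 231 and from 85.1 to 125.

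Whether ABT-888 changed the levels left by ethanol was asked by comparing the treated groups with each other. No clock gene was called in TRAP or total-RNA, and 0% of all genes were called by the same test. None of the 10 had an unadjusted p under 0.05, a mark that 0.966% of all genes reached in TRAP and 1.91% in total-RNA. DESeq2 also called 0 clock genes in each sample type, with 0% and 0.0142% of all genes called. The log2 fold change of EtOH + ABT-888 against EtOH was -0.16 for Cry2 in TRAP (95% confidence interval -0.53 to 0.20) and -0.14 in total-RNA (-0.53 to 0.24). For Cry1 it was -0.39 in both (-1.01 to 0.23 and -0.96 to 0.17), and for Per1 it was -0.09 (-0.99 to 0.80) and -0.07 (-1.08 to 0.93). The Per1 intervals thus leave room for a change of about 2-fold in either direction, and a call under EtOH with none under EtOH + ABT-888 is not a difference between these groups.

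The ethanol effect was next compared between sample types with an interaction term over all 22 libraries, first without the mouse in the model. No clock gene was called for EtOH (0.0213% of all genes) or for EtOH + ABT-888 (0% of all genes), and none had an unadjusted p under 0.05 by edgeR's quasi-likelihood test (4.87% and 3.38% of all genes). Under glmLRT (0.114% and 0.0426% of all genes) and DESeq2 (0.114% and 0.0284%) the count was also 0 for both. The term, TRAP effect minus total-RNA effect, was -0.48 for Per1 with EtOH (-1.97 to 1.01), -0.47 for Cry1 (-1.33 to 0.39) and 0.08 for Cry2 (-0.43 to 0.60). With EtOH + ABT-888 it was -0.48 for Per1 (-1.97 to 1.00), -0.46 for Cry1 (-1.33 to 0.40) and 0.06 for Cry2 (-0.45 to 0.58).

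With the mouse as a block, which uses the pairing of the libraries, the intervals were narrower and no clock gene was called for either treatment (0.0995% and 0% of all genes). The Per1 term was then -0.47 with EtOH (-0.80 to -0.14, unadjusted p = 0.00885, adjusted p = 0.29) and -0.45 with EtOH + ABT-888 (-0.78 to -0.12, adjusted p = 0.526). The Cry1 term was -0.50 with EtOH (-0.90 to -0.11, unadjusted p = 0.0161, adjusted p = 0.335) and -0.45 with EtOH + ABT-888 (-0.85 to -0.05, adjusted p = 0.599). An unadjusted p under 0.05 in this fit was found for 2 clock genes with EtOH, Per1 and Cry1, and for 3 with EtOH + ABT-888, Per1, Cry1 and Arntl, and for 10.6% and 7.36% of all genes. The log2 difference of TRAP and total-RNA within a mouse was 0.99, 1.28 and 1.09 for Cry1 in Control mice 1, 4 and 7 and 0.54, 0.88, 0.47 and 0.58 in EtOH mice 2, 5, 8 and 9. In EtOH + ABT-888 mice 3, 6, 10 and 11 it was 0.79, 1.09, 0.37 and 0.46 for Cry1. These Cry1 values did not overlap between Control and EtOH, while mouse 6 lay within the Control range. For Per1 the difference was 0.86, 1.09 and 1.18 in Control mice and 0.95, 0.49, 0.45 and 0.42 in EtOH mice, with mouse 2 within the Control range, and 0.81, 0.47, 0.46 and 0.64 in EtOH + ABT-888 mice, all below it.

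Several clock genes spanned a wider range over the treated mice than over Control mice. Over the 8 treated mice the highest Per2 level in TRAP was 7.15 times the lowest, against 1.60 times over the 3 Control mice, and the same ratios were 5.86 and 1.15 for Arntl, 4.25 and 1.14 for Per1, and 2.92 and 1.47 for Per3. In total-RNA, Per1 spanned 4.79-fold in treated mice and 1.34-fold in Control, and Arntl 2.67-fold and 1.21-fold. Clock spanned 1.29-fold in TRAP of treated mice and 1.11-fold in Control_TRAP. Dbp went the other way in total-RNA, with 1.45-fold in treated mice and 1.58-fold in Control, and spanned 1.92-fold and 1.51-fold in TRAP. The 8 treated mice pool both treatments and are more in number than the 3 Control mice, and these ratios were not tested.

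The genes did not vary together in 1 direction. Mice 10 and 8, from different groups, had the highest and second highest Arntl and Per1 levels of the 8 treated mice in both sample types, and also the 2 lowest Per3 levels. Mouse 6 had the lowest Arntl level (22.2 CPM in TRAP, 29.0 in total-RNA) and the highest Per3 level (70.6 and 59.8) in both sample types. On the log2 scale, Dbp exceeded Arntl by 1.74, 2.71 and 2.36 in TRAP of mice 3, 6 and 11 and was below it by -0.41 in mouse 10. In Control_TRAP this difference was 0.74, 0.54 and 0.05, and in EtOH_TRAP it lay between 0.14 and 1.26. In total-RNA it was 0.58, 0.81 and 0.68 in mice 3, 6 and 11, -1.09 in mouse 10, and between -0.54 and 0.39 in the 7 other mice. Mouse 9 had the lowest Per2 level of all treated mice in both sample types and mouse 11 the second lowest, and in TRAP these mice also had the lowest Cry1 and Per1 levels.

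**Figure D4:**
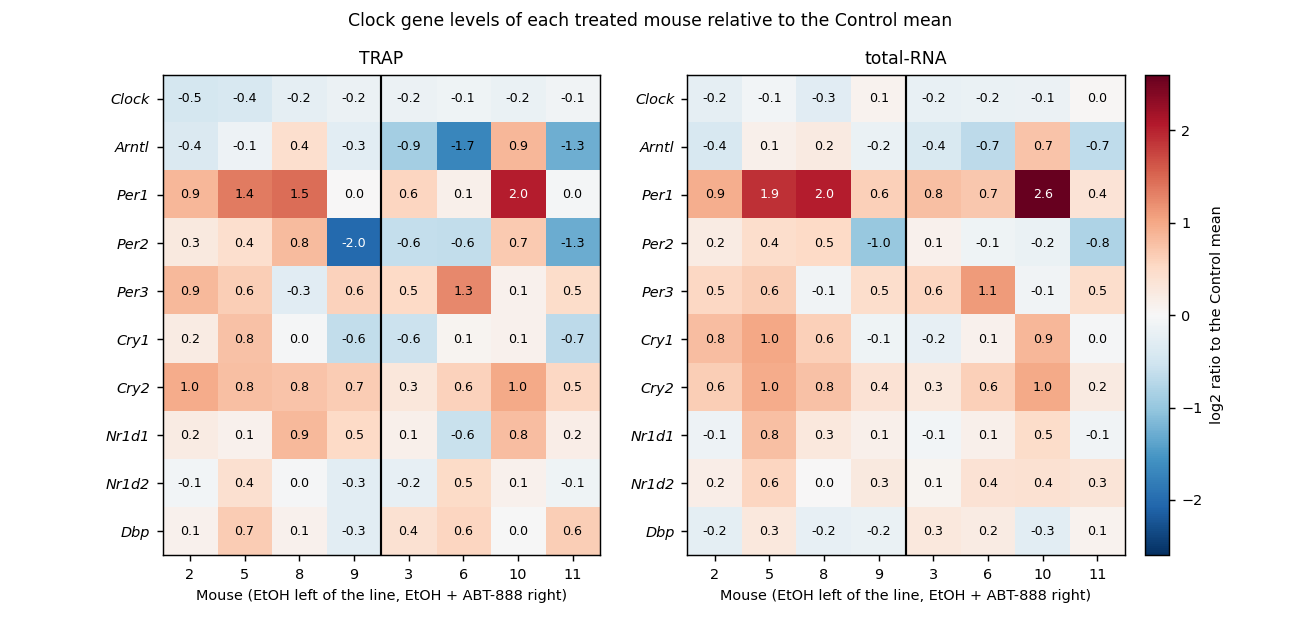
Log2 ratio of each treated mouse's level to the mean of the 3 Control mice (colour and printed value) for the clock genes in TRAP (left) and total-RNA (right), with EtOH mice left of the line and EtOH + ABT-888 mice right of it. Arntl is above the Control mean in mice 8 and 10 and below it in mice 3, 6 and 11, Per3 is highest in mouse 6, and Per1 is highest in mouse 10 in both sample types.

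Further clock-linked genes, 21 in number and all past the filter, were followed as a list: paralogs of the activators, ROR receptors, other repressors, D-box factors, kinases and ubiquitin ligase parts that act on PER and CRY, and Usp2, Noct and Timeless. In TRAP 3 of 21 were higher in EtOH than in Control and none lower, where 2.77% of all genes were higher. Npas2, which can stand in for CLOCK, rose from 111 ± 13.7 CPM (SD, n = 3) to 182 ± 15.3 (n = 4), a log2 fold change of 0.72 ± 0.15 (adjusted p = 0.018). Tef, a D-box factor related to DBP, rose from 427 ± 64.6 to 787 ± 241 CPM (0.91 ± 0.22, adjusted p = 0.0332). Ciart, a repressor of CLOCK and ARNTL, rose from 11.4 ± 2.94 to 32.0 ± 14.2 CPM (1.52 ± 0.37, adjusted p = 0.0359). Leaving out any 1 of the 3 Control libraries ended these calls, and leaving out EtOH mouse 9 raised their number to 5. In total-RNA 5 were higher and 1 lower, where 17.6% of all genes were called and 9.04% were higher. Tef (0.83 ± 0.16) and Ciart (1.29 ± 0.33) were higher here too, as were Bhlhe41, a repressor (0.75 ± 0.11, adjusted p = 0.00111), and Usp2, a deubiquitinase (0.41 ± 0.12). Btrc, a ubiquitin ligase part that acts on PER, was lower (-0.38 ± 0.10, adjusted p = 0.023). Without Control mouse 7 this total-RNA count was 2 and without Control mouse 4 it was 3. The shares of all genes called in the fits above that leave out a library, in either sample type, are not given here. In EtOH + ABT-888 none of the 21 was called against Control in either sample type (0.476% and 0.263% of all genes). An unadjusted p under 0.05 by edgeR's quasi-likelihood test was found for 5 of them in each (12.1% and 15.9% of all genes), and DESeq2 called 2 in each (2.98% and 4.41%). Tef was 769 ± 246 CPM in EtOH + ABT-888_TRAP and 375 ± 76.8 in its total-RNA, against 787 ± 241 and 376 ± 103 in EtOH. Between EtOH + ABT-888 and EtOH, none of the 21 was called in either sample type (0% of all genes) or had an unadjusted p under 0.05 by edgeR's quasi-likelihood test (0.966% of all genes in TRAP and 1.91% in total-RNA). The interaction with sample type was called for none, with an unadjusted p under 0.05 for Npas2 and Hlf with EtOH (4.87% of all genes) and for Npas2 with EtOH + ABT-888 (3.38%), counts near the background.

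Between TRAP and total-RNA of Control mice, 13 of the 21 were called, 9 higher and 4 lower in TRAP, and 10 in EtOH (7 higher) and 9 in EtOH + ABT-888 (7 higher). With 59.9%, 50.7% and 41% of all genes called, these counts are near the background and say nothing particular of the list. Rorb (-1.84 ± 0.19) and Rora (-0.49 ± 0.09), receptors that activate Arntl, were lower in Control_TRAP than in Control_total-RNA. Tef (0.99 ± 0.11), Npas2 (0.56 ± 0.11) and Fbxl21, a ubiquitin ligase part that acts on CRY (1.25 ± 0.15), were higher, as Dbp was. Tef and Npas2 were also higher in TRAP of EtOH (1.05 ± 0.22 and 1.11 ± 0.13) and of EtOH + ABT-888 mice (1.04 ± 0.22 and 1.17 ± 0.15).

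Other lists also differed between the groups in these libraries. Of 7 glucocorticoid-induced genes, a list that holds no clock gene, 6 were higher in EtOH_total-RNA than in Control_total-RNA, where 9.04% of all genes were higher (Sgk1 1.88 ± 0.13, Ddit4 1.79 ± 0.15 and Fkbp5 1.74 ± 0.12 on the log2 scale). Their summed level was 303 to 353 CPM in Control_total-RNA, 654 to 805 in EtOH_total-RNA and 534 to 893 in EtOH + ABT-888_total-RNA, with mouse 10 highest. In TRAP the sums were 275 to 301, 461 to 505 and 389 to 541 CPM, and 3 of 7 genes were higher with EtOH (2.77% of all genes). In EtOH + ABT-888, 4 of 7 were called in total-RNA (0.263% of all genes) and 0 in TRAP (0.476%), where 4 had an unadjusted p under 0.05 by edgeR's quasi-likelihood test (12.1% of all genes). Of 9 activity-dependent genes, 1 was higher and 2 were lower with EtOH in TRAP (5.24% of all genes called), and 2 were higher in total-RNA (9.04% of all genes higher). Their summed level in TRAP was 677 to 923 CPM in Control mice, 733, 439, 746 and 300.0 in EtOH mice 2, 5, 8 and 9, and 923, 326, 315 and 319 in EtOH + ABT-888 mice 3, 6, 10 and 11. Microglia markers were lower with EtOH in total-RNA for 4 of 6 genes (17.6% of all genes called), with sums of 247 to 259 CPM in Control, 94.5 to 149 in EtOH and 85.6 to 199 in EtOH + ABT-888. In TRAP, excitatory neuron markers had a median log2 fold change of -0.94 with EtOH and of -1.02 with EtOH + ABT-888. Of the 6 markers 1 and 2 were called, both times lower (5.24% and 0.476% of all genes called). Their summed level did not follow the median, at 2379 to 2643 CPM in Control_TRAP, 2494 to 3269 in EtOH_TRAP and 2207 to 3212 in EtOH + ABT-888_TRAP. The 6 inhibitory neuron markers summed to 802 to 865 CPM in Control_total-RNA, 915 to 1004 in EtOH_total-RNA and 701 to 862 in EtOH + ABT-888_total-RNA, and 1 of them was called higher with EtOH (9.04% of all genes). The 6 oligodendrocyte markers summed to 339 to 441 CPM in Control_TRAP, to 318 to 723 in EtOH_TRAP, and to 857, 318, 461 and 1458 in EtOH + ABT-888_TRAP of mice 3, 6, 10 and 11, with none called. The part of these transcripts in the clock gene values was not tested.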

How the data were processed

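RNA of the PFC of 11 mice was measured in 22 libraries, a TRAP and a total-RNA library per mouse. Per the labels and the study's methods, libraries were made after ribosomal RNA depletion and sequenced as paired reads. The authors used STAR, mm10 and featureCounts (submitters' processing notes) and deposited raw counts per gene. Versions, the annotation release and the strand setting are not given in the sources used here. Groups came from the sample labels. The clock genes and all lists were chosen with earlier results of these data known. The genes named are the 10 clock genes, at most 6 clock-linked genes called per comparison, the 3 genes most like Per1, Dbp and Arntl, and Camk2a with the marker lists. The values of some listed genes, which the counts and sums of their lists include, are not reported here.

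Names, positions and exon lengths came from GENCODE release M21, which held 38872 of the 39056 genes and lacked 184, and promoter windows from RefSeq for GRCm38.p6. The software was R 4.3.3, edgeR 4.0.16 (with limma 3.58.1) and, as an alternative, DESeq2 1.42.0. Genes with at least 500 counts in all and detected in at least 3 libraries were kept (14072 kept, 24984 removed). Each comparison used TMM factors and edgeR's quasi-likelihood test on the groups compared, with Benjamini-Hochberg adjustment and a threshold of 0.05, and the interactions used all 22 libraries. Errors are the SE of a log2 fold change or the SD over mice, and the prior count of log2 CPM was 1. The quasi-likelihood test was first run on simulated counts for some of the comparisons, and the alternative fits were not. The TRAP and total-RNA library of a mouse carry the same animal number in the labels, and their deviations from the group means correlated in every mouse (r = 0.10 to 0.62 over genes), so a block for the mouse was an alternative in every comparison across sample types. Within groups, 30 pairs of libraries had r of log2 CPM between 0.920 and 0.992, and no pair agreed within sampling noise. The alternatives were RLE factors, no filter, DESeq2, exactTest, glmLRT, a single fit over all libraries, the mouse as a block, CPM without TMM factors and leaving out each library. TRAP libraries were shallower than total-RNA libraries, and the part of depth in the precision of low genes was not tested.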

Additional observations from a re-analysis of the deposited data

Results flagged for a closer look

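In 40 groups of 4 mice (10 clock genes in 4 groups of treated libraries), 5 held a library whose gap to its nearest neighbour exceeded Dixon's 95% critical value for 4 samples, a mark that chance gives in about 1 of 20 groups. Arntl of mouse 10 stood above the other EtOH + ABT-888 mice in TRAP (130.3 CPM, against 22.2 to 39.2) and in total-RNA (77.5 CPM, against 29.0 to 35.2). Per1 of the same mouse stood above them in TRAP (309.7 CPM, against 72.8 to 110.2) and in total-RNA (224 CPM, against 46.8 to 62.9). These 4 values come from 1 mouse, so they are not independent marks. Dbp of mouse 5 stood above the other EtOH mice in total-RNA (52.7 CPM, against 36.9 to 39.0). That Dbp value lay within the range of Control_total-RNA (34.7 to 54.8 CPM).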

How the results depend on the processing

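In a single fit over all 22 libraries the counts of called clock genes were 4 for TRAP against total-RNA in Control (9 in the reported fit), 5 in EtOH + ABT-888 (3), 1 for EtOH against Control in TRAP (2) and 0 in total-RNA (3), and the clock-linked counts were 0 for EtOH in total-RNA (6) and 1 for EtOH + ABT-888 in TRAP (0). That fit called 42.8%, 51.6%, 8.46% and 1.07% of all genes in these 4 comparisons of clock genes, in that order. With the mouse as a block, clock genes called in TRAP against total-RNA were 8 in EtOH (58.8% of all genes) and 6 in EtOH + ABT-888 (54.3%), and the block changed the count of no other comparison by over 1.5 times. RLE factors left 1 clock gene for EtOH in TRAP (5.25% of all genes). Without the filter, EtOH + ABT-888 against Control gave 2 clock genes and 3 clock-linked genes in each sample type (1.91% of all genes in TRAP, 1.99% in total-RNA). EtOH in TRAP then gave 5 clock-linked genes. DESeq2 gave 1 clock gene and 2 clock-linked genes for EtOH + ABT-888 in TRAP (2.98% of all genes) and 2 clock-linked genes in total-RNA (4.41%). For the same treatment exactTest gave 2 clock-linked genes in each, with a share of all genes that is not given here. No share is given either for EtOH in TRAP without the filter or for EtOH + ABT-888 in TRAP in the single fit. The cause was not tested.

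Leaving out each library in turn gave 8 to 9 clock genes for TRAP against total-RNA in Control, 3 to 7 in EtOH and 1 to 5 in EtOH + ABT-888, 0 to 2 for EtOH against Control in TRAP and 2 to 4 in total-RNA, and 0 to 1 for EtOH + ABT-888 against Control in each. In TRAP against total-RNA, the count of EtOH was 3 without TRAP of mouse 8 or total-RNA of mouse 2, and that of EtOH + ABT-888 was 5 without total-RNA of mouse 10 and 1 without TRAP of mouse 11 or total-RNA of mouse 3, 6 or 11. The count for EtOH against Control in TRAP was 0 without Control mouse 1 or 7, and that for EtOH + ABT-888 was 1 without mouse 3 or 10 in TRAP and without mouse 10 in total-RNA. The clock-linked counts were 12 to 14, 6 to 10 and 8 to 12 for TRAP against total-RNA, 0 to 5 and 2 to 9 for EtOH, and 0 to 1 and 0 to 4 for EtOH + ABT-888, in TRAP and total-RNA. The shares of all genes called in these fits are not given here, so neither set of counts can be set against them. Log2 fold changes that crossed 0 were those of Arntl for EtOH + ABT-888 against Control in total-RNA (-0.57 to 0.034), Per1 between the treated groups in TRAP (-0.80 to 0.13) and total-RNA (-0.88 to 0.17), the interaction with EtOH of Cry2 (-0.011 to 0.18), and the interaction with EtOH + ABT-888 of Per1 (-1.19 to 0.32) and Cry2 (-0.082 to 0.24). Of 61 fold changes of clock genes not printed, 32 changed sign under some alternative and 4 were called under some alternative. Levels without TMM factors moved by less than 1 SD in 60 of 60 group means.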

Other observations

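The genes whose log2 CPM was most like that of a clock gene over the 11 total-RNA libraries were named for Per1, Arntl and Dbp, as a description of these libraries, which share their treatments and, with TRAP, their mice. For Per1 they were Gab2 (Pearson's r = 0.989, and 0.868 over the 11 TRAP libraries), Taf5l (0.977 and 0.928) and Col6a1 (0.968 and 0.917). For Arntl they were Stim2 (0.942 and 0.522), Emc7 (0.938 and 0.547) and Rbak (0.935 and 0.524). For Dbp they were Lysmd4 (0.888 and 0.047), Aspscr1 (0.852 and -0.246) and Incenp (0.844 and -0.382), whose likeness to Dbp was thus not seen in TRAP.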
